A study of Mus musculus with 40 samples.

Results

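What distinguished cells labelled as lacking 3 CREB family factors from cells labelled as lacking 2 of them was examined gene by gene, as an added step. The added step is a difference of differences on log2(TPM + 1), where TPM is a length-corrected transcript abundance scaled to the same total in each library. It is the mean of the 3 libraries labelled ATF1/CREB1/CREM-KO minus that of control clones 9 to 11, less the mean of the 3 libraries labelled ATF1/CREB1-KO minus that of control clones 6 to 8. A negative step means that the gene was lower, relative to its own control clones, in the libraries with the added CREM label. Genes entered where the mean was at least 1 TPM in each of the 4 groups, which held for 11419 of the 55414 genes in the table. The 2 labels are called the triple and the double knockout below.

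All 12 libraries came from mpkCCD cells, an immortalized line of mouse kidney collecting duct, polarized on permeable supports and given 0.1 nM dDAVP, a vasopressin analogue, for 72 hours, in medium with dexamethasone. Control clones 6 to 8 and 9 to 11 carry no knockout label, the ATF1/CREB1-KO libraries carry 2 and the ATF1/CREB1/CREM-KO libraries 3, all in the presence of dDAVP. Each group has 3 libraries. The labels do not say whether the 3 libraries of a knockout label are separate clones, so p-values measure only the spread between these libraries. The labels do not say which control clones were run beside which knockout. Here the double knockout was set only against control clones 6 to 8 and the triple only against control clones 9 to 11. The added label and the pairing with these control clones therefore cannot be told apart.

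Vasopressin acts on collecting duct principal cells through a receptor that raises cAMP and activates protein kinase A. ATF1, CREB1 and CREM are the closely related basic leucine zipper factors that this kinase phosphorylates, and they bind as dimers to a DNA sequence called the cAMP response element, or CRE. The Crem gene can also give a short repressor form, ICER, from an internal promoter. Aqp2 encodes the water channel that vasopressin raises in these cells.

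The sequence that these factors bind is shown in 5 upstream windows, of genes that stand for different arrangements below: Aqp2 had the smallest p of the added step, Pde4b the smallest under a looser rule on low levels, 3830406C13Rik was nearly lost in the triple knockout, and Tspyl4 and Snapc5 fell in both knockouts. Each line is the 250 bases before a RefSeq transcript start (GRCm38.p6), read toward the gene, from a RefSeq table in which 14 of the 31 genes looked up had an entry. Capitals mark the full CRE letters TGACGTCA or its shorter form TGACG or CGTCA, called the short site. Pde4b has several starts in that table and the first is shown.
Aqp2, GRCm38.p6 chr15:99578806-99579055, plus strand: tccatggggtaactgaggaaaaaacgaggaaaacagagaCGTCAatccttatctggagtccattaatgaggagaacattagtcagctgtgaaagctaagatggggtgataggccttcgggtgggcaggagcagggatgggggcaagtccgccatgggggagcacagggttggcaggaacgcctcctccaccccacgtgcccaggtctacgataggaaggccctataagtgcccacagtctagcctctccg
Pde4b, GRCm38.p6 chr4:102421305-102421554, plus strand: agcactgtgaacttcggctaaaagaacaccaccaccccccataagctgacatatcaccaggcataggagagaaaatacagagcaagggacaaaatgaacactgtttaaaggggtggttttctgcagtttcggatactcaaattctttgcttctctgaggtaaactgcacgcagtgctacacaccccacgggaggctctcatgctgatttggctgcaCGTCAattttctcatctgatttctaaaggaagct
3830406C13Rik, GRCm38.p6 chr14:12283953-12284202, plus strand: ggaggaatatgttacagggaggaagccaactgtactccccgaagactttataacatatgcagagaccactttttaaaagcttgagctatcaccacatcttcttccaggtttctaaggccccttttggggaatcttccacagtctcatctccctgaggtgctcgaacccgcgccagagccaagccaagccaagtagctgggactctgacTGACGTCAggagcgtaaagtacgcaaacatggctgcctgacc
Tspyl4, GRCm38.p6 chr10:34297171-34297420, plus strand: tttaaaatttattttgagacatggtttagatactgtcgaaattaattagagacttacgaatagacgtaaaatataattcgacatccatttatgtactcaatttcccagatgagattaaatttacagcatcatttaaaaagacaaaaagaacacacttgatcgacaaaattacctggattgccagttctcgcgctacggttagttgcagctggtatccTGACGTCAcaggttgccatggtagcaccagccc
Snapc5, GRCm38.p6 chr9:64179047-64179296, plus strand: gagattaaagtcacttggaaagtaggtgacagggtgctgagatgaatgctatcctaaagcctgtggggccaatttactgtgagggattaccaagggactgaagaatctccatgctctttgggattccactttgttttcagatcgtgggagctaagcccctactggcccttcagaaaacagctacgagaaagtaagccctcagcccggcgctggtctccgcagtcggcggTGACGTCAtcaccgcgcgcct

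The Aqp2 window held no full site and 1 short site, 211 bases before the start. The first Pde4b window held a short site 34 bases before its start, and the windows of the 3 other starts held none. In 3830406C13Rik, Tspyl4 and Snapc5 a full site lay 42, 33 and 21 bases before the start. A match of letters is a description of the window and does not show binding.

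Of the 11419 genes, 1 was called in the added step, Aqp2, which was lower (limma with Benjamini-Hochberg adjustment over all 11419 genes, adjusted p under 0.05). That is 0.00876% of the genes tested in the lower and 0% in the higher direction. At an unadjusted p under 0.05 there were 579 genes (5.07%), 309 lower and 270 higher, and no other tool was run. The smallest adjusted p besides that of Aqp2 was 0.0744, shared by Angpt2, Tln2 and Cyfip2. Leaving out 1 library gave 1 to 9 called steps, with 9 without triple knockout replicate 1 and 3 without double knockout replicate 3, and Aqp2 was among them each time. The median standard error of the step was 0.315, against 0.223 for each of its 2 components, and the median 95% interval reached 0.69 to either side. A step of at least 1 in size was seen in 284 genes, 209 of them lower and 75 higher.

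Libraries differed between the pairs and within the knockout labels. The median TPM of the tested genes was 12.0 and 12.2 in control clones 6 to 8 and the double knockout, and 37.4 and 36.0 in control clones 9 to 11 and the triple knockout, with cytosolic ribosomal protein genes at 7.21% to 15.3% and 3.13% to 4.15% of all TPM. Because of the added 1 TPM, the log scale understates the change of genes with low values, and these are lower in the first pair. Replicate 3 of the double knockout stood apart, with the lowest mean correlation with its own group (0.923) and the lowest ribosomal protein share of its group. Replicate 1 of the triple knockout had the lowest such correlation of its group (0.949, against 0.967 and 0.969). Triple knockout replicates 2 and 3 had similar median changes by chromosome. On chromosome 14 these were -0.56 and -0.55, against -0.04 in replicate 1, and on chromosome 18 they were 0.43 and 0.44, against 0.03. Whether these 2 libraries are related was not tested, and the tests treat the 3 libraries as independent. Mitochondrially encoded genes took 3.20% to 4.31% of TPM in the double knockout against 2.08% to 2.33% in its control clones, and 2.06% to 2.63% in the triple against 1.21% to 1.42%. With ribosomal protein and mitochondrial genes taken out, 2 steps were called in place of 1, and the Aqp2 step was -5.94. The triple knockout then had 440 calls against 454, and the double 133 against 93. Beyond this the part of these shares in the results was not tested. No library columns were identical.

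The targeted genes did not pass the test in the added step. Atf1 had a step of 0.03 (SE 0.29), Creb1 of -0.40 (SE 0.22) and Crem of -0.71 (SE 0.44), with adjusted p-values of 0.987, 0.933 and 0.933 (limma). Creb1 lay below its control clones without overlap in both labels. It was at 3.86, 3.59 and 2.72 TPM in the double knockout against 4.98, 6.69 and 4.99 TPM (log2 change -0.58, limma adjusted p 0.104), and at 18.60, 18.18 and 19.35 TPM in the triple against 39.03, 38.17 and 35.92 TPM (-0.97, adjusted p 0.00503).

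Crem was at 9.08, 10.63 and 12.96 TPM in control clones 6 to 8 and at 15.49, 20.47 and 46.54 TPM in the double knockout. It was at 24.87, 19.98 and 23.13 TPM in control clones 9 to 11 and at 26.02, 31.61 and 33.81 TPM in the triple knockout. The libraries labelled as lacking CREM therefore lay above their control clones for Crem, as did those of the double knockout. Its log2 change in the triple was 0.41 (limma adjusted p 0.594), and the 280 tested genes of its chromosome, 18, had median changes of 0.03, 0.43 and 0.44 in triple knockout replicates 1 to 3. Values per gene cannot tell edited from unedited transcripts, so the knockout state, and with it the direction of every step, rests on the labels.

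Aqp2 is the yardstick for the other genes. It was at 637.03, 491.68 and 507.73 TPM in the double knockout, within the range of control clones 6 to 8 (855.29, 379.15 and 1029.00 TPM). In the triple knockout it was at 15.10, 16.05 and 15.31 TPM, against 1627.08, 640.62 and 2279.29 TPM in control clones 9 to 11. The 3 triple knockout values were close together although the control clones spread widely. The means were 72.3% of control in the double and 1.02% in the triple knockout, and the step was -5.98 (SE 0.61, limma adjusted p 0.00657).

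**Figure D1:**
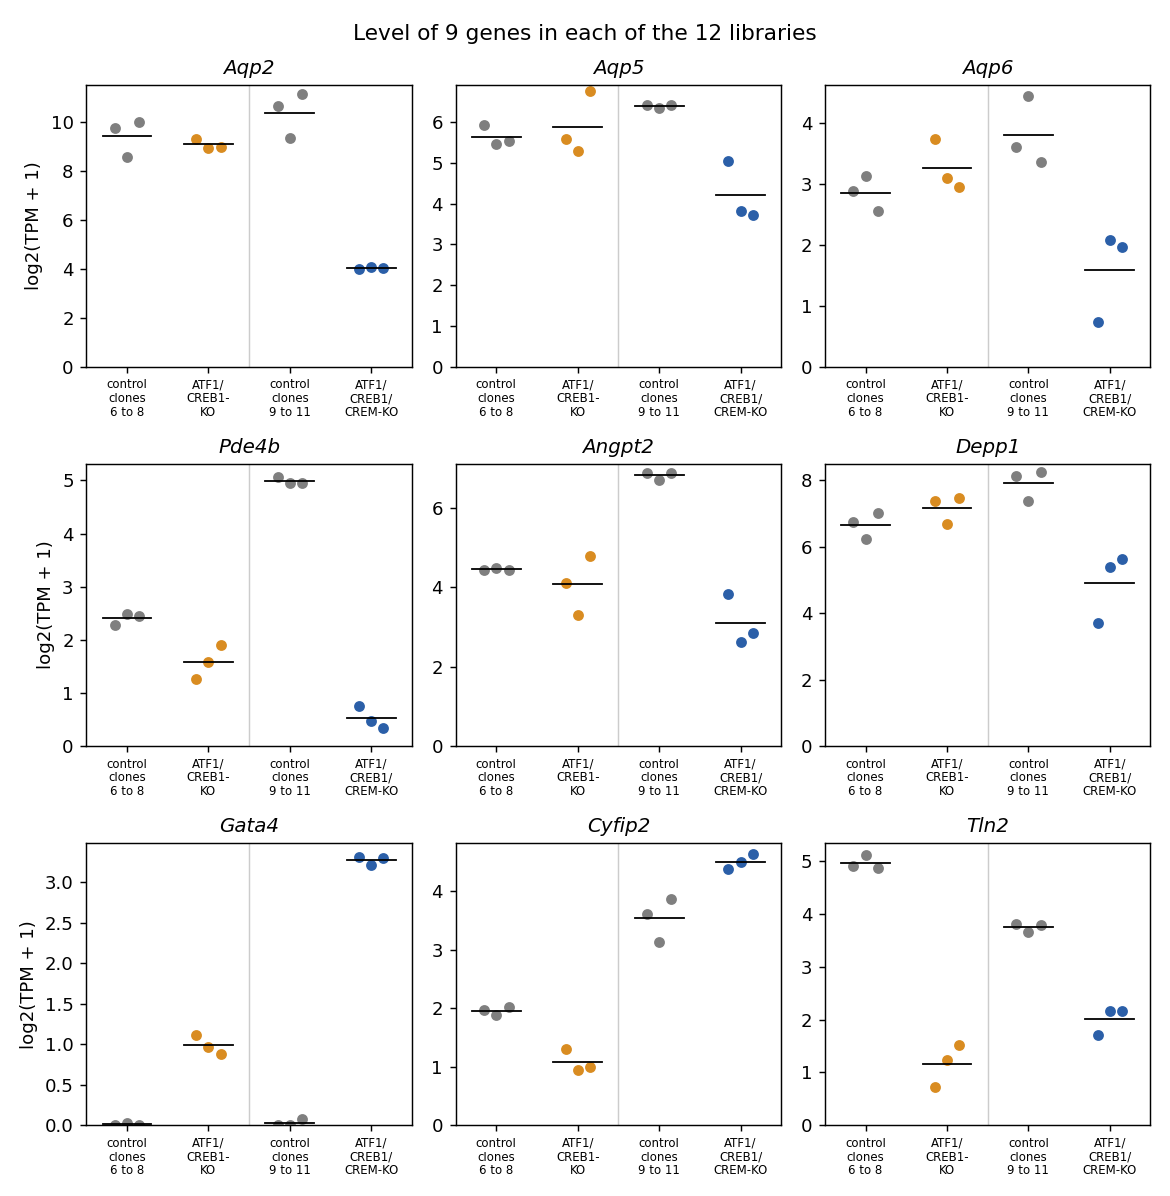
Level of 9 genes in each library, as log2(TPM + 1) on an axis of its own per gene, with 1 point per library and a line at the mean of each group of 3. Grey points are control clones, orange points ATF1/CREB1-KO and blue points ATF1/CREB1/CREM-KO, and each knockout group stands to the right of its own control clones. For Aqp2 the double knockout lies within its controls while the triple knockout lies at 15.10 to 16.05 TPM.

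Beside Aqp2 on chromosome 15, the 2 following genes in the annotation's order (GENCODE M21) are Aqp5 and Aqp6, which encode a further water channel and a channel of intracellular vesicles. Aqp5 was at 47.22, 38.04 and 107.03 TPM in the double knockout and at 59.70, 43.01 and 44.98 TPM in its control clones. In the triple knockout it was at 32.21, 13.21 and 12.27 TPM, below each of control clones 9 to 11 (84.76, 80.09 and 84.49 TPM). Aqp5 was lower in the triple knockout than in its controls (log2 change -2.19, limma adjusted p 0.0102) and overlapped them in the double (0.24, adjusted p 0.796).

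Aqp6 showed the same arrangement at a lower level. The double knockout had 12.34, 7.61 and 6.79 TPM against 6.38, 7.76 and 4.87 TPM, and the triple knockout 0.67, 3.22 and 2.89 TPM against 11.17, 20.78 and 9.28 TPM. Its log2 change was -2.21 in the triple knockout (limma adjusted p 0.00851) and 0.41 in the double (adjusted p 0.635). The added step itself was -2.43 (SE 0.55) for Aqp5 and -2.62 (SE 0.54) for Aqp6, and neither passed the threshold over all genes (adjusted p 0.566 and 0.395). With libraries weighted by their quality both passed it, at steps of -2.24 (adjusted p 0.00297) and -2.09 (adjusted p 0.0296). That setting called 101 steps in place of 1. It gave the lowest weight (0.0566) to double knockout replicate 3, the library with the highest Aqp5. Aqp5 and Aqp6 were the 2 tested of the 9 genes in the aquaporin list. Aqp3 and Aqp4, kept in the principal cell list, were not tested.

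Tested genes on either side were mostly nearer to 0. Racgap1, which follows Aqp6 and encodes a regulator of cytokinesis, had a step of 0.00 (SE 0.44). Bcdin3d, the nearest tested gene before Aqp2, had a step of -0.61 (SE 0.40, limma adjusted p 0.933). Faim2, between Bcdin3d and Aqp2, was under the level rule and not tested. It was at 0.33, 0.18 and 0.10 TPM in the triple knockout against 1.59, 0.87 and 0.68 TPM, and at 0.94, 0.76 and 0.46 TPM in the double against 1.35, 1.16 and 1.09 TPM, so its libraries did not overlap their control clones in either label. Gpd1, a glycerol phosphate dehydrogenase 7 genes after Aqp2, was lower in the triple knockout (log2 change -1.66, adjusted p 0.0398), at 16.44, 63.07 and 66.87 TPM against 127.97, 131.23 and 137.84 TPM, with a step of -1.29 that was not called. Over all 452 tested genes of chromosome 15 the median step was -0.18, with a median change of -0.30 in triple knockout replicate 1 and of -0.03 and -0.02 in replicates 2 and 3. The part of this shift in the Aqp2 region was not tested. The windows before the Aqp5 and Aqp6 starts held neither the full nor the short CRE letters.

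**Figure D2:**
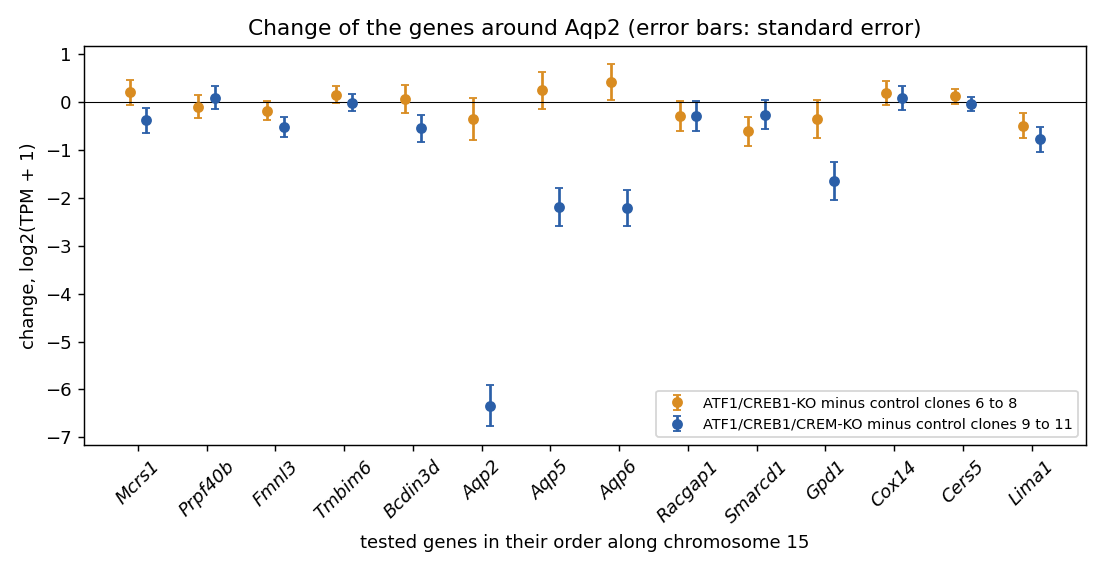
Change of the tested genes around Aqp2 in each knockout label against its own control clones, on log2(TPM + 1), in their order along chromosome 15, with standard errors of the limma fit as bars. Aqp2, Aqp5 and Aqp6 lie below -2 in the triple knockout and between -0.36 and 0.41 in the double.

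The 4 genes that follow Aqp2 in the lower direction by unadjusted p did not pass the threshold. Angpt2, a secreted ligand of the endothelial Tie2 receptor, came nearest. It was at 16.39, 8.91 and 26.83 TPM in the double knockout, spread around the 20.84, 21.52 and 20.67 TPM of its control clones. In the triple knockout it was at 13.24, 5.14 and 6.22 TPM, all far below the 118.17, 104.47 and 118.36 TPM of control clones 9 to 11. The step of Angpt2 was -3.35 (SE 0.50, limma adjusted p 0.0744), and it passed the threshold in 7 of 13 alternative analyses and 2 of 12 that left out a library.

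Depp1, which encodes a regulator of autophagy known as a FOXO target, was at 163.56, 101.69 and 174.58 TPM in the double knockout and at 105.12, 74.01 and 127.20 TPM in its control clones. The triple knockout had 11.87, 40.98 and 48.78 TPM, against 280.86, 163.53 and 304.33 TPM. The means were thus 144% of control in the double and 13.6% in the triple knockout, with a step of -3.53 (SE 0.64, limma adjusted p 0.259).

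Kptn encodes kaptin, a subunit of the KICSTOR complex that restrains mTORC1. It was at 3.06, 4.69 and 6.57 TPM in the double knockout against 6.44, 8.37 and 7.00 TPM, and at 5.22, 5.79 and 5.77 TPM in the triple against 28.77, 30.40 and 25.65 TPM. Its mean was 65.7% of control in the double and 19.8% in the triple knockout, and its step was -1.59 (SE 0.29, limma adjusted p 0.259). Gm10800, a predicted gene with near-identical copies whose value is therefore uncertain, had a step of -2.99 (SE 0.53, adjusted p 0.259) and was at 14.1% of control in the triple and 144% in the double knockout.

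In the higher direction, a positive step came from different arrangements of the 4 groups. Tln2, which encodes talin-2, a link between integrins and actin, was lower in both knockouts. It was at 0.66, 1.35 and 1.85 TPM in the double knockout against 29.05, 33.81 and 28.42 TPM. Values in the triple were 2.28, 3.48 and 3.49 TPM against 12.99, 11.57 and 12.83 TPM. The groups did not overlap in either pair, and the log2 changes were -3.81 in the double (limma adjusted p 6.7e-06) and -1.74 in the triple (adjusted p 0.00105). The step of 2.08 (SE 0.29, adjusted p 0.0744) is thus a smaller decrease in the triple knockout. It passed the threshold in 8 of 12 alternative analyses and in 3 of 12 that left out a library.

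Cyfip2, a subunit of the WAVE complex that drives actin branching, lay on opposite sides of its control clones in the 2 labels. It was at 1.47, 0.91 and 0.99 TPM in the double knockout, below the 2.90, 2.69 and 3.03 TPM of its control clones. In the triple knockout it was at 19.75, 21.68 and 23.77 TPM, above the 11.24, 7.73 and 13.47 TPM of control clones 9 to 11. The log2 change was 0.97 in the triple (limma adjusted p 0.0182) and -0.88 in the double (adjusted p 0.0689), and the step was 1.85 (SE 0.28, adjusted p 0.0744). Its paralog Cyfip1, looked up after these values were seen, had a step of -0.17 (SE 0.23).

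The basement membrane collagen gene Col4a2 was also on opposite sides of its controls, at 64.9% of their mean in the double and 167% in the triple knockout. Its step was 1.18 (SE 0.27, limma adjusted p 0.648). Col4a1, its partner chain and head-to-head neighbour, looked up afterwards, had a step of 0.72 (SE 0.23, adjusted p 0.841). Both lie on chromosome 8, whose 643 tested genes had a median change of 0.21 in triple knockout replicate 1 and of -0.01 in replicates 2 and 3.

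Gsdmcl2, a transcribed pseudogene of the gasdermin C family, was at 14.00, 12.39 and 13.38 TPM in the triple knockout against 2.77, 4.36 and 2.83 TPM, and overlapped its control clones in the double. Its step was 1.5 (SE 0.34, limma adjusted p 0.566). The family's coding members share sequence with it, and of these Gsdmc4 had a step of 1.54 (adjusted p 0.792), Gsdmc3 of 1.04 and Gsdmc2 of 0.90, so reads could be split between them. Foxd2os, a transcript antisense to Foxd2 whose reads cannot be told from that gene's without strand information, had a step of 1.08 (SE 0.23, adjusted p 0.395).

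The rule of 1 TPM in each group also removed genes that were under it in a single group. Only the triple knockout mean was under 1 TPM for 165 genes, and only the double knockout mean for 217. The same count was 216 for control clones 6 to 8 and 99 for control clones 9 to 11, so it is not particular to knockout labels. When a mean of 1 TPM over the 12 libraries was asked for instead, 9 of 13158 genes (0.0684%) were called in the step, 6 lower and 3 higher.

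Pde4b, a cAMP phosphodiesterase and known CREB target, had the smallest p of these 9. It was at 3.87, 4.61 and 4.45 TPM in control clones 6 to 8 and at 1.39, 2.01 and 2.75 TPM in the double knockout. It was at 32.62, 30.12 and 29.95 TPM in control clones 9 to 11 and at 0.69, 0.39 and 0.26 TPM in the triple knockout. Neither pair of groups overlapped, and the means were 47.6% of control in the double and 1.45% in the triple knockout. The step was -3.65 (SE 0.27, limma adjusted p 3.0e-04).

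Gata4, a zinc finger transcription factor of heart and endoderm, was the only gene of the 9 that was near 0 in all control clones. It was listed at 0 in 2 of control clones 6 to 8 and at 0.02 TPM in the other, and at 0 in 2 of control clones 9 to 11 and at 0.05 TPM in the other. In the double knockout it was at 1.16, 0.95 and 0.84 TPM and in the triple at 8.98, 8.27 and 8.83 TPM. Gata4 passed the level rule only through the triple knockout, where it was high, so its call is a description of these values and supports nothing further. Its changes were positive in both labels (log2 change 0.97, limma adjusted p 0.0428, and 3.25, adjusted p 6.84e-06), with a step of 2.28 (adjusted p 0.0107). It lies on chromosome 14, whose 367 tested genes had median changes of -0.04, -0.56 and -0.55 in triple knockout replicates 1 to 3.

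Gpam, the mitochondrial enzyme that starts glycerolipid synthesis, and Guf1, a mitochondrial translation GTPase, fell in both knockouts. Gpam was at 0.12, 0.66 and 0.15 TPM in the double and at 0.07, 0.51 and 0.54 TPM in the triple knockout, and Guf1 at 0.20, 0.32 and 0.59 TPM and at 0.55, 0.02 and 0.12 TPM. Their control clones differed in level, at 3.62 and 24.9 TPM on average for Gpam and 4.12 and 22.9 TPM for Guf1. Gpam was at 8.56% of control in the double and 1.5% in the triple knockout, and Guf1 at 8.97% and 1.00%. The steps of -2.42 (limma adjusted p 0.0215) and -2.42 (adjusted p 0.0403) therefore go with control levels that are higher in the second pair, while the knockout levels of both labels lie under 1 TPM. The rest were Aqp2, Tln2, Cyfip2 and Angpt2, described above, and the small nucleolar RNA Gm22620, listed at 0 in 9 libraries and at 38.54, 14.87 and 13.18 TPM in control clones 9 to 11. Gm22620 passed the level rule only through these control clones, and its double change was 0. Its call therefore describes a difference between the 2 sets of control clones and supports nothing further.

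Among the genes with only the triple knockout mean under 1 TPM, 9 were at 5 TPM or more in the other groups. The same count was 4 for the double knockout, 2 for control clones 6 to 8 and 5 for control clones 9 to 11. Of the 6 named by the rule for the triple knockout, only 3830406C13Rik was above 0 in each of the 9 other libraries. 3830406C13Rik is a coding gene of chromosome 14. It was at 4.21, 4.47 and 28.37 TPM in the double knockout against 16.02, 16.45 and 17.20 TPM, so replicate 3 lay above the control clones and the others below. In the triple knockout it was listed at 0 in 2 libraries and at 0.68 TPM in replicate 3, against 19.31, 16.38 and 22.53 TPM. The others named by the same rule (Gm22771, Gm23991, Gm22591, Gm12338 and Gm20390) were small or predicted transcripts listed at 0 in all 3 triple knockout libraries and in at least 1 library of another group. The genes removed by the double knockout alone and named by the rule were the small RNAs Mir546, Snora64 and Mir6516, listed at 0 also in some control clones.

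The components of the step were then set side by side over the same 11419 genes. The triple knockout had 313 genes called lower (2.74%) and 141 called higher (1.23%). In the double knockout 64 were called lower (0.56%) and 29 higher (0.254%). Single libraries moved these counts by more than 1.5 times. Without double knockout replicate 3 they were 1396 in the triple and 568 in the double, without control clone 9 they were 144 and 46, and without control clone 6 the double count was 8. The comparisons share no library, but they come from the same fit with a shared estimate of spread, so their calls are not independent. Of the 454 genes called in the triple knockout, 68 (15.0%) were also called in the double, which is 73.1% of the 93 called there, and all 68 changed in the same direction, 50 lower and 18 higher. The sign was the same for 430 of the 454 (94.7%), against 63.9% of the genes not called in the triple. Spearman's rho between the 2 changes was 0.457 over the 11419 genes, which are not independent replicates. The median double change was -0.66 for the 313 lower genes, whose median triple change was -1.17.

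Among the shared changes was that of Cisd2, an iron-sulfur protein of the endoplasmic reticulum and mitochondrial membranes. It was at 19.06, 14.93 and 16.41 TPM in the double and 18.96, 16.04 and 16.36 TPM in the triple knockout. Its control clones were at 63.95, 57.74 and 64.39 TPM and at 94.74, 81.00 and 89.73 TPM. The median TPM of the tested genes was 12.2 in the double and 36.0 in the triple knockout. Similar TPM in the 2 labels is therefore not a similar level relative to other genes. The log2 changes of Cisd2 were -1.83 and -2.31 (limma adjusted p 1.62e-04 and 2.3e-05), with a step of -0.48 (95% interval -0.91 to -0.04, unadjusted p 0.035, adjusted p 0.933). Sgk1, a kinase that raises sodium channel activity in principal cells, was the largest rise among the list genes. It was at 118.74, 148.33 and 211.49 TPM in the double knockout against 18.94, 28.96 and 11.85 TPM, and at 760.02, 1585.40 and 1524.37 TPM in the triple against 95.08, 156.25 and 71.51 TPM. The step of Sgk1 was 0.59 (SE 0.55), so the added label went with no called change beyond the rise in the double knockout.

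Tspyl4 and Snapc5, with full CRE letters in the windows printed above, were lower in both labels too. Tspyl4, of the nucleosome assembly protein family, was at 2.31, 3.10 and 1.32 TPM in the double knockout against 6.30, 6.42 and 8.70 TPM, and at 1.89, 2.42 and 1.22 TPM in the triple against 26.00, 24.24 and 21.24 TPM. Snapc5, a subunit of the complex that starts small nuclear RNA transcription, was at 21.90, 47.80 and 30.47 TPM against 108.55, 114.08 and 105.92 TPM, and at 4.94, 6.28 and 7.09 TPM against 41.68, 42.96 and 37.66 TPM. The groups did not overlap for either gene. Their steps were -1.79 (limma adjusted p 0.259) and -0.81 (adjusted p 0.933).

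**Figure D3:**
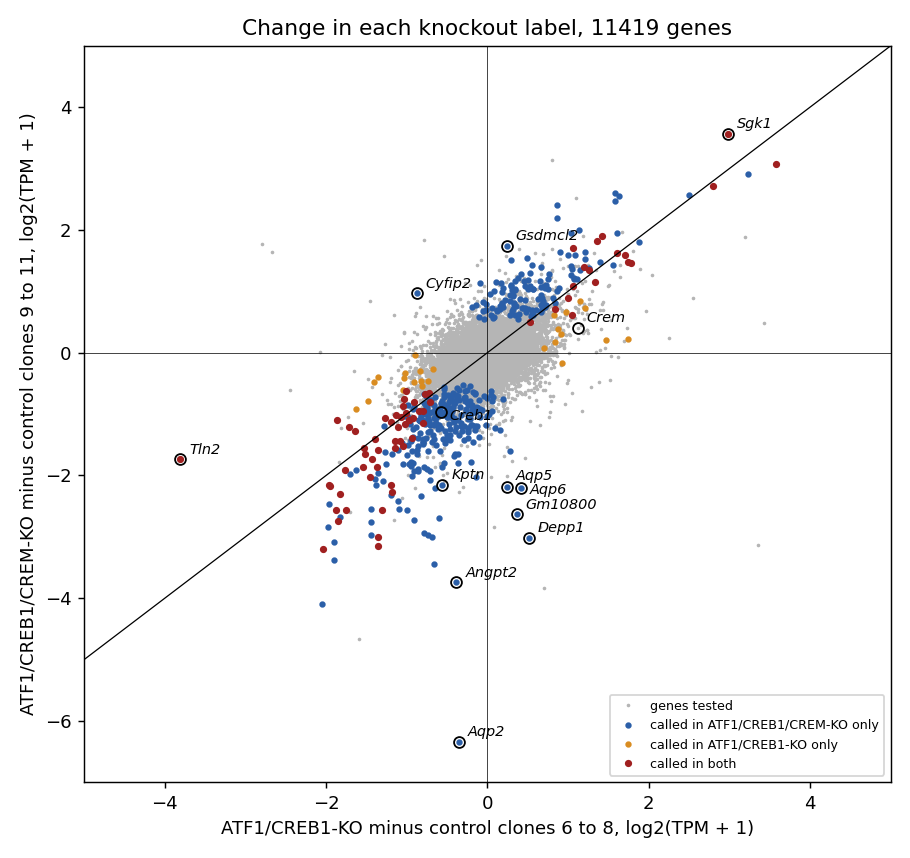
Change of each of 11419 genes in the double knockout (horizontal axis) and in the triple knockout (vertical axis), each against its own control clones, on log2(TPM + 1). Colours mark genes called in 1 or both labels and the diagonal marks a step of 0. Aqp2 lies farthest below the diagonal among the called genes, at -0.36 and -6.34, and Tln2 lies above it at -3.81 and -1.74.

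A smaller set of genes was called in the triple knockout by at least 1 on the log2 scale while the double change was within 0.5 of 0. It held 73 genes, 54 lower and 19 higher, and both limits were chosen with the values known. The set is given as a description, since its definition fixes a step away from 0. After Aqp2 and Angpt2, the lowest triple p-values among those lower belonged to Ly6g6d, Gm10800 and Marveld1, and among those higher to Ilrun, Gsdmcl2 and Lonp1. Lonp1, the main protease of the mitochondrial matrix, rose by 1.09 in the triple (limma adjusted p 0.00269) with a double change of 0.46. On the lower side, Crabp2, which carries retinoic acid to its nuclear receptors, changed by -1.60 in the triple (adjusted p 0.00707) and 0.28 in the double, and Rdh10, which makes retinal, by -1.20 (adjusted p 0.00925) and -0.33. Others that fell were Btc, encoding the growth factor betacellulin (-2.02, adjusted p 0.0111), Ffar4, a receptor for long-chain fatty acids (-1.78, adjusted p 0.0157), Idh1, the cytosolic isocitrate dehydrogenase (-1.22, adjusted p 0.0305), and Epor, the erythropoietin receptor (-1.05, adjusted p 0.0423). These genes were picked from the 73 after their values were seen. None passed the test of the step itself, where Crabp2 had an adjusted p of 0.380 and Btc of 0.823.

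The CRE letters were counted in the 250 bases before the RefSeq start of the protein-coding genes with an entry. Of 8376 such genes tested, which is 81.2% of the protein-coding genes tested, 262 (3.13%) held the full letters TGACGTCA, which read the same on both strands, and 32.3% held a short site, a count that includes those within a full site. Among genes called lower in the triple knockout, 25 of 227 (11.0%) held the full letters. Those with a double change of -0.5 or below held them in 24 of 148 (16.2%). Those with a double change within 0.5 of 0 held them in 1 of 78 (1.28%), and that gene was Noc4l. Short sites were in 57.4% and 39.7% of the same genes. Among genes called lower in both knockouts, 7 of 39 (17.9%) held the full letters. The limit of 0.5 was chosen after the data were seen, and the shares are given without a test. The same count for genes called higher in the triple knockout is void, since 72.9% of them had an entry, under the 80% asked for.

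**Figure D4:**
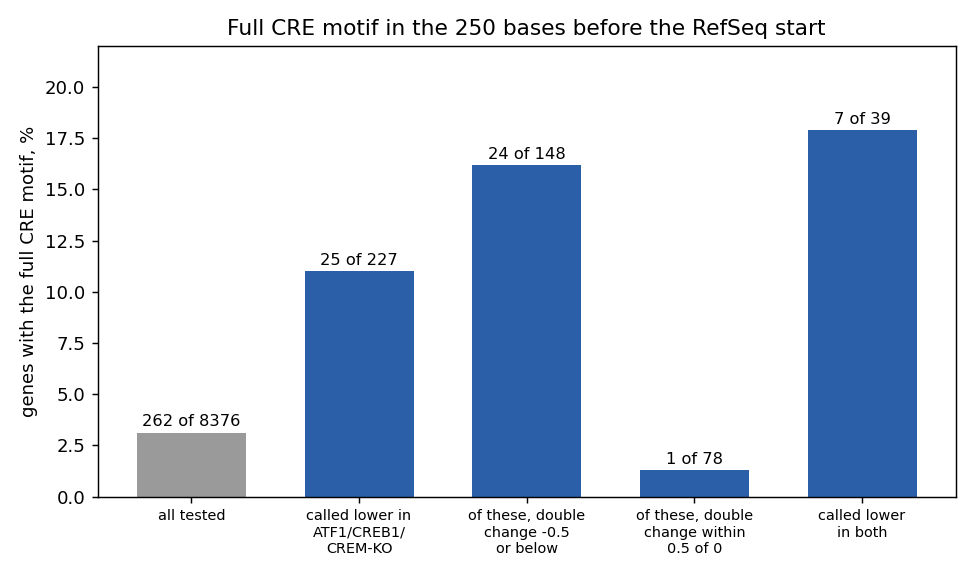
Share of protein-coding genes with the full CRE letters in the 250 bases before the RefSeq start, in percent, with the counts above each bar. The bars stand at 16.2% for genes lower in the triple knockout with a double change of -0.5 or below, at 1.28% for those with a double change within 0.5 of 0, and at 3.13% for all genes tested.

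Among genes passing the level rule in each group, lists of the tissue and of the pathway held no called member in the added step. Aqp2, the only gene called, had been kept out of every list. The absence of called members therefore follows from how the lists were made and says nothing further about these genes. Under the looser rule, Pde4b of the CREB target list and Gpam of the lipid synthesis list were called, as given above. For the collecting duct identity of the cells, 23 of 30 principal cell genes were tested, with a median step of -0.08 against -0.03 over all genes. Elf3, an epithelial transcription factor, was at 275.31, 219.71 and 224.73 TPM in the triple knockout against 380.26, 358.21 and 409.90 TPM and overlapped its controls in the double (step -0.94, unadjusted p 0.00894). Cdh16, the kidney cadherin, was at 2025.76, 2971.86 and 2980.28 TPM in the triple against 1483.12, 1506.47 and 1551.40 TPM and also overlapped in the double (step 0.79, unadjusted p 0.0287). The vasopressin receptor gene Avpr2 had a step of -0.60 (SE 0.37) and the sodium channel gene Scnn1a of -0.06 (SE 0.31). The summed level of the 30 genes was 10600 to 12900 TPM in control clones 9 to 11 and 10100 to 13200 TPM in the triple knockout. This sum leaves out Aqp2 and holds Sgk1, with means of 108 and 1290 TPM in the same groups. Of the tested members 1 was called lower and 2 higher in the triple knockout. Similar sums therefore do not show that the members were unchanged.

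Markers of other cells were few. Of 16 intercalated cell genes 2 were tested, of 12 genes of other nephron segments 1 was tested, and of 18 stromal, endothelial and immune genes 1 was tested, with 4, 2 and 6 of them listed at 0 in all 12 libraries. Their summed levels were 173 to 195 TPM, 20.4 to 21.9 TPM and 5.42 to 8.47 TPM in control clones 9 to 11, and 179 to 190, 3.89 to 30.0 and 2.55 to 5.55 TPM in the triple knockout. The range of the nephron segment list followed Lrp2, the proximal tubule receptor megalin, which was at 25.20 TPM in replicate 1 and at 1.10 and 1.66 TPM in replicates 2 and 3. Slc12a3 of that list, not tested, was higher, at 4.4, 1.24 and 1.68 TPM in the triple against 0.04, 0.07 and 0.14 TPM. In the double it was at 0.59, 0.79 and 0.24 TPM against 0.06, 0.23 and 0.15 TPM. The similar intercalated cell sums held Rhcg, not tested, at 1.03, 0.61 and 0.64 TPM in the triple against 10.29, 52.84 and 1.87 TPM. Rhcg was at 0.33, 0.45 and 0.44 TPM in the double against 3.96, 9.95 and 0.48 TPM.

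Of 30 CREB target genes, 21 were tested and their median step was -0.18, with 12 below 0. Nr4a1, an immediate early nuclear receptor gene, was at 2.56, 3.69 and 5.40 TPM in the double knockout against 6.70, 9.09 and 8.95 TPM, and at 13.37, 9.09 and 9.18 TPM in the triple against 37.37, 43.49 and 39.49 TPM. The groups did not overlap in either pair, and the log2 changes were -0.95 (limma adjusted p 0.0783) and -1.85 (adjusted p 0.00108), with a step of -0.90 (SE 0.32, adjusted p 0.855). Id1, an inhibitor of basic helix-loop-helix factors, had a step of -0.92 (SE 0.37, adjusted p 0.933) with a double change of -0.01. Among the 21 tested targets Nr4a1 was the 1 called in the triple knockout, where 2.74% of all genes tested were called lower. Pde4b, on the same list, was not tested, since its triple knockout mean was under 1 TPM. Under the looser level rule the log2 change of Pde4b in the triple was -4.47 (limma adjusted p 7.6e-07).

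The upstream pathway lists held no called member either, since Aqp2 was in none of them. Of 43 cAMP and protein kinase A genes 24 were tested, with a median step of 0.08, and Rapgef3, which encodes the cAMP-regulated exchange factor Epac1, had the only unadjusted p under 0.05 (step -0.65, SE 0.23). The catalytic subunit gene Prkacb was called in the triple knockout (log2 change -0.71, limma adjusted p 0.0317) with a step of -0.34. Of 38 genes of related leucine zipper factors 31 were tested, with a median step of 0.08, and those with an unadjusted p under 0.05 were Creb3l4 (step -1.02) and Cebpb (step -0.82). Genes of aquaporin-2 trafficking, 28 of 30 tested, had a median step of -0.06 and none at an unadjusted p under 0.05.

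In the stress and metabolic lists single genes are given by their values, and none was called in the step. Over all genes tested, 5.07% had an unadjusted p under 0.05 in the step. Herpud1, a component of endoplasmic reticulum protein degradation, was at 72.21, 87.18 and 91.28 TPM in the double knockout against 58.36, 56.43 and 56.44 TPM. In the triple it was at 498.34, 613.21 and 558.38 TPM against 235.42, 204.59 and 233.75 TPM. The step of Herpud1 was 0.77 (SE 0.20, limma adjusted p 0.823), with the median of the 30 tested stress genes at 0.01 and 3 of them at an unadjusted p under 0.05. Elovl6, a fatty acid elongase, was lower in the triple knockout (log2 change -1.0, adjusted p 0.0197) and near 0 in the double (0.02), with a step of -1.02 (SE 0.29, adjusted p 0.836) against a median of 0.12 over 29 genes of lipid synthesis. Cdh1, the epithelial cadherin, rose in the triple knockout (log2 change 0.61, adjusted p 0.0260) with a step of 0.56 (SE 0.19). The 20 epithelial-mesenchymal genes had a median step of -0.01, with 2 at an unadjusted p under 0.05. Medians over 21 interferon response genes, 36 replication and mitosis genes, 11 clock genes and 17 prostaglandin and growth factor genes lay between -0.01 and 0.09, with 2, 3, 0 and 0 members at an unadjusted p under 0.05 and none called in the step. The 80 tested cytosolic ribosomal protein genes, not drawn in the plot of steps by list, had a median step of 0.23, with 12 below 0, 1 at an unadjusted p under 0.05 and 0 called.

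**Figure D5:**
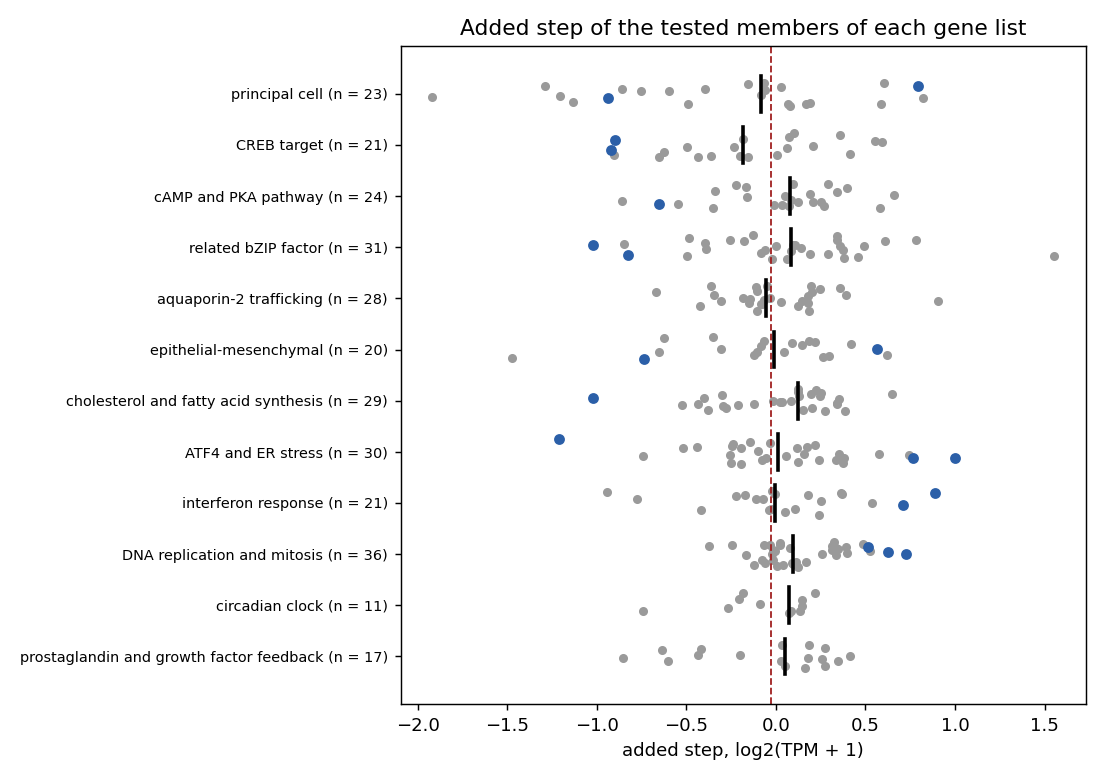
Added step on log2(TPM + 1) of the tested members of 12 gene lists of the tissue, pathway, stress and metabolism, each with at least 10 tested genes, with 1 point per gene and a black line at each list's median. Blue points have an unadjusted p under 0.05 and the dashed line marks the median of all 11419 genes. The medians of the lists drawn lie between -0.18 and 0.12.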

How the data were processed

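The authors deposited 1 table of TPM values, read as TPM because each column sums to the fixed total of that unit, with columns for 22 libraries, of which 12 were used here. STAR and RSEM are named in the submitters' processing notes, with no role or version. The genome build and annotation of the table are not given in the sources used here, and depth is unknown, so no counting interval is given. Chromosomes and gene order came from GENCODE M21 (GRCm38) by Ensembl identifier, and 50 of 1399 missing names were added from it. Values were tested as log2(TPM + 1) with limma 3.58.1 in R 4.3.3 (lmFit, contrasts.fit, eBayes with trend, 8 residual degrees of freedom), with Benjamini-Hochberg adjustment over 11419 genes. The fit was also run on simulated data with large planted steps and independent noise. That run does not bear on smaller steps or on libraries that stand apart. A gene is called where the adjusted p is under 0.05. Errors of log2 changes are standard errors.

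The genes and lists were chosen with earlier results of these data known. Named were Aqp2, the targeted genes, called genes (filled to 5 per direction by unadjusted p), called list members, and genes that the level rule left out, by their control level. Genes named beyond this rule are said to be so, or are members that a count singles out, and were chosen after their values were seen. Same-numbered knockout libraries correlated at 0.349, 0.172 and 0.0382 in their deviations from the group means, so the numbers were not taken to pair libraries.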

Additional observations from a re-analysis of the deposited data

Results flagged for a closer look

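Aqp2 differed between the knockout labels by the test of the difference itself. Its change against own control clones was -0.36 in ATF1/CREB1-KO and -6.34 in ATF1/CREB1/CREM-KO, a difference of -5.98 (SE 0.61, limma adjusted p 0.00657), with all 3 triple knockout libraries below all 3 control clones. No other of the 11419 genes that passed the level rule in each group met that test. Under the looser level rule over the 12 libraries, 8 others did, of which Gata4 and Gm22620 passed that rule only through a single group. Groups of 3 libraries are too small for a test of single outlying samples.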

How the results depend on the processing

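The step of Aqp2 was called in all 26 alternatives, at -5.04 without control clones taken off, at -7.33 with quantile normalization, and between -6.51 and -5.55 when 1 library was left out (adjusted p 5.31e-04 to 0.0403). The count of called steps, 1, was also 1 with a pseudocount of 0.1, a level of 5 TPM in each group, or eBayes without trend or robust. It was 8 with a pseudocount of 5, 9 with a level of 1 TPM over the 12 libraries or with no filter, 3 with median-ratio scaling, 4 with quantile normalization, 2 without ribosomal protein and mitochondrial genes, 101 with library quality weights and 13 in a fit over 22 libraries. With a replicate block it was 8. Without subtracting control clones it was 9402, 7975 of them higher, so that count carries the difference between the pairs of libraries. Leaving out 1 library gave 1 to 9 calls: 9 without triple knockout replicate 1, 6, 3 and 3 without double knockout replicates 1, 2 and 3, and 1 without each of the others.

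The 454 calls of the triple knockout were 731 with a pseudocount of 5, 167 with a level of 5 TPM, 4346 with quality weights, 880 over 22 libraries and 1091 with a replicate block, and 144 (without control clone 9) to 1396 (without double knockout replicate 3) when 1 library was left out. They were 174 and 185 without control clones 10 and 11, and 186 and 230 without triple knockout replicates 2 and 3. The 93 calls of the double knockout were 33 with a level of 5 TPM, 60 with no filter, 197 with median-ratio scaling, 216 with quantile normalization, 1021 with quality weights, 575 over 22 libraries and 465 with a replicate block. They were 8 (without control clone 6) to 568 (without double knockout replicate 3) when 1 library was left out, with 23 and 15 without control clones 7 and 8, 168 and 173 without double knockout replicates 1 and 2, 46, 50 and 53 without control clones 9 to 11, and 142, 60 and 50 without triple knockout replicates 1 to 3. The share of lower calls, 68.9% in the triple, was 55.9% with median-ratio scaling and 54.5% with quantile normalization, and in the double, 68.8%, it was 56.3% and 49.1%. Causes were not tested.

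For the other 12 genes named by the rule, over the alternatives that take off control clones, 255 of 294 values kept direction and side of the threshold, 35 passed it and 4 changed sign, all of Atf1: -0.10 with quality weights and between -0.14 and 0.24 over the analyses without 1 library (-0.01, -0.11 and -0.14 where negative). Without control clones taken off, Creb1 was at 2.18, Crem at 0.29 and Kptn at 0.24. What depth limits cannot be given, since TPM does not state it.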
